A study of Mus musculus with 23 samples.

Results

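miR-128 is a microRNA made from 2 genes of the mouse genome, and it was followed here through its 3 mature products, mmu-miR-128-3p, mmu-miR-128-1-5p and mmu-miR-128-2-5p (written below without the species prefix mmu). They were taken by name from the 1218 mature mouse miRNAs that small RNA sequencing counted in the liver of 23 mice; all 3 were listed, and 2 of them were among the 386 miRNAs with enough counts to be tested. All mice were male C57bl/6J animals of the third generation (F3) of a breeding protocol. Reference mice (n = 8, labelled STD_Cont) came from the control lineage, bred on a diet supplemented with a sunflower oil rich in oleic acid, and received a standard low-fat diet. HFoleic mice (n = 8, HFD_Cont) came from the same control lineage and received a high-fat, high-sucrose diet. HFepa mice (n = 7, HFD_O3) received that high-fat diet but came from the omega 3 lineage, bred on a diet supplemented with a fish oil rich in the omega 3 fatty acid EPA. HFoleic vs. reference therefore addresses the diet, HFepa vs. HFoleic the lineage under the high-fat diet, and HFepa vs. reference both at once. No omega 3 mouse on the low-fat diet was in the data. Which mice shared a litter was not given, and the labels give no age.

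MicroRNAs are short RNAs that guide Argonaute proteins to messenger RNAs, mostly through the pairing of bases 2 to 8, the seed, to sites in 3′ untranslated regions, and so lower the output of those messengers. Each precursor hairpin can give a product from either arm, called 5p and 3p. miR-128 is best known as an abundant neuronal miRNA. In liver and macrophages it has been described as a regulator of cholesterol and lipid handling, through the cholesterol exporter ABCA1 among others, and of insulin signaling, through the insulin receptor and its adaptor IRS1.

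The mature sequences (RefSeq, GRCm38.p6; all 3 members matched) show why the counts of the 3p product cannot be divided between the genes whereas those of the 5p products can. The seed is in capitals.
miR-128-3p: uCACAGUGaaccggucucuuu
miR-128-1-5p: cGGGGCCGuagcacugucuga
miR-128-2-5p: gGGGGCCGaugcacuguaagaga
The sequence of miR-128-3p was identical at both genes, at chr1:128202404-128202424 on the plus strand and at chr9:112118644-112118664 on the minus strand. The 5p products differed at 5 of the first 21 bases. Counted from 1 at the 5′ end, with the base of miR-128-1-5p first, the differences were C1G, U9A, A10U, C18A and U19A. None of these fell in the seed, GGGGCCG, which both 5p products shared.

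The whole hairpins show where the products lie, with both mature arms in capitals.
Mir128-1: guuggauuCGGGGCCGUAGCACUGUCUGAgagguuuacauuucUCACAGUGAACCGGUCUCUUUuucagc
Mir128-2: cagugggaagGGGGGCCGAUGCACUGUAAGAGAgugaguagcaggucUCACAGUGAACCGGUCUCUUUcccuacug
Mir128-1 is 70 bases long, at chr1:128202361-128202430 on the plus strand, and lies in R3hdm1 on the same strand. Of the 8 coding transcripts of that gene 2 span it, with no exon overlapping it. Mir128-2 is 76 bases long, at chr9:112118636-112118711 on the minus strand, and lies in the same orientation in Arpp21. Of the 14 coding transcripts of Arpp21 7 span it, with no exon overlapping it. Both are thus intronic in the transcripts of the annotation (GENCODE) that span them. The longest run of bases that the hairpins share is 23.

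Among 1679 mature mouse sequences of the same RefSeq table, no other had the seed CACAGUG, and the seed GGGGCCG occurred only in the 5p products of miR-128. The seed of miR-128-3p is nevertheless contained in a more abundant family, that of miR-27, whose members also act on lipid metabolism. The bases in common are in capitals.
miR-128-3p: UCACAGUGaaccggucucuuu
miR-27a-3p: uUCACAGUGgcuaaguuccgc
miR-27b-3p: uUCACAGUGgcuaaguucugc
The first 8 bases of miR-128-3p are bases 2 to 9 of both miR-27 products, so that the seeds are offset by 1 base.

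To show what these seeds can pair with, the 3′ untranslated region of 1 transcript per gene was searched on the transcribed strand for CACTGTG, the complement of the miR-128-3p seed, and for ACTGTGA, that of the miR-27 seed, which overlaps the former by 6 bases. CACTGTG was found in 18.7% of 20907 regions, ACTGTGA in 15.8% and both in 7.82%. The genes shown are examples from cholesterol export and insulin signaling, chosen for what is known of them, and how many of them hold a match is not a result. CACTGTG occurred once in the regions of Abca1, Rxra (a partner of the nuclear receptors that control lipid genes), Insr (the insulin receptor) and Irs1, and 2 times in that of Pik3r1, a regulatory subunit of phosphoinositide 3-kinase. It did not occur in that of the cholesterol transporter gene Abcg1. The matches are given with the flanking bases and with the letters searched in capitals.
Abca1, chr4:53033876-53033897, minus strand: tcttcctttgCACTGTGtcaag
Rxra, chr2:27760828-27760849, plus strand: gccttgtttgCACTGTGgagcc
Insr, chr8:3151807-3151828, minus strand: tgggcagtatCACTGTGagagt
Irs1, chr1:82237385-82237406, minus strand: aacaagaaagCACTGTGacacc
Pik3r1, chr13:101684343-101684364, minus strand: agacacatcaCACTGTGgatta
Pik3r1, chr13:101683071-101683092, minus strand: agtgggtggtCACTGTGctttg
ACTGTGA occurred once in the regions of Abca1, Rxra and Irs1 and 2 times in that of Insr. It did not occur in those of Abcg1 and Pik3r1. In Insr and Irs1 the base after CACTGTG is an A, so that the same 8 bases match both miR-128-3p and miR-27. These regions were between 3156 and 4747 bases long, against a median of 936 over all genes, and a longer region holds more chance matches. A match is a description of letters, and the levels of these messengers were not used here.

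The libraries differed in ways that bear on every value below. They held between 3725432 and 8139344 counts, with medians of 5981328 in reference, 5408676 in HFoleic and 4400595 in HFepa. The labels number the libraries from 1 to 23: reference mice are 1 to 8, HFoleic mice 9 to 15 and 23, and HFepa mice 16 to 22. Libraries 1 to 11 therefore hold no HFepa mouse and libraries 12 to 23 no reference mouse, and nothing in the labels says what the number stands for. The sums of miRNAs that mark cells other than hepatocytes were highest in libraries 3, 4 and 5, all reference, for every list but the endothelial one. The summed level of the biliary list was highest in library 3 (1094 CPM, with 333 CPM in the next library), that of the muscle list in library 4 (217 CPM, next 12.4) and that of the pancreas list in library 5 (2021 CPM, next 57.4). The pancreas sum was nearly all miR-375-3p, with 14442 counts over all libraries, 12032 of them in 1 library. Its other members, miR-216a-5p, miR-216b-5p and miR-217-5p, had 13, 8 and 21 counts. Library 3 also had the highest sums of the stellate and fibroblast list (42525 CPM, next 33222) and the leukocyte list (3556 CPM, next 2800). The erythroid list was highest in library 4 (8771 CPM, next 7634 in library 5), with HFepa libraries reaching 7254 CPM. The nervous tissue list was highest in library 5 (49.5 CPM, next 25.4), and the endothelial list in library 14, an HFoleic library (26002 CPM, next 23667). CPM are counts relative to the library total, scaled by TMM factors, which correct for differences in composition between libraries. The hepatocyte list, with miR-122-5p, had medians of 20593, 20352 and 19944 CPM in reference, HFoleic and HFepa.

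In the liver miR-128-3p was a moderately abundant miRNA. Its mean over the 23 libraries was 35.7 CPM, rank 191 of 1218. The related miR-27b-3p stood at 22574 CPM, 632-fold above it, and miR-27a-3p at 528 CPM, 14.8-fold above it. miR-122-5p, the most liver-specific miRNA, reached 18677 CPM, and miR-33-5p, a repressor of cholesterol export through ABCA1, was lower than miR-128-3p at 9.53 CPM. All are mature miRNAs of nearly the same length, so that their CPM can be set side by side, apart from differences in ligation and amplification between sequences, which were not measured.

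The 5p products were rare. miR-128-1-5p had 184 counts in all libraries together and was the lowest of the 386 miRNAs tested. miR-128-2-5p had 3 counts, all in HFoleic library 12 (0.554 CPM), and 0 in the other 22 libraries. A count of 0 in a whole group allows up to 0.0603 CPM in reference and 0.0994 CPM in HFepa, taking 3 counts as the limit. Of the 187 counts on the 5p arms, 98.4% thus carried the sequence of Mir128-1, the gene in R3hdm1 (95% exact Clopper-Pearson interval 95.4 to 99.7). The share was 89 of 89 counts in reference, which leaves a lower limit of 95.9%. It was 50 of 53 in HFoleic (94.3%, 84.3 to 98.8) and 45 of 45 in HFepa (lower limit 92.1%). These intervals cover counting error only, and they describe the 5p arms. The origin of the 3p counts cannot be read from them, since the genes may release their arms in different proportions. The share per library was not compared between groups, since some libraries had as few as 2 counts on the 5p arms.

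miR-128-3p was lower in both high-fat groups than in the reference group. In reference its level was lowest at 40.9 CPM, had a median of 45.6 and was highest at 52.3 CPM (mean 45.1 ± 3.87, SD, n = 8). In HFoleic it ranged from 20.9 through a median of 30.5 to 43.6 CPM (32.2 ± 8.39, n = 8). In HFepa it ranged from 20.8 through 28.3 to 42.0 CPM (29.1 ± 6.60, n = 7). Of the 8 HFoleic libraries 7 were below the lowest reference library, 2 of them by less than 1 CPM at 40.4, and of the 7 HFepa libraries 6 were below it. The groups overlapped, through library 10 (43.6 CPM) in HFoleic and library 17 (42.0 CPM) in HFepa. Groups without overlap were found for 0% of the 386 miRNAs tested in HFoleic vs. reference and for 4.66% in HFepa vs. reference.

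In HFoleic vs. reference, miR-128-3p fell by 0.49 on the log2 scale (SE 0.14), which is 28.6% lower (edgeR quasi-likelihood test, adjusted p = 0.0311 over 386 miRNAs). It thus passed the call used throughout, an adjusted p under 0.05 with an absolute log2 fold change over 0.25. This call was met by 12.4% of all miRNAs tested in that comparison, 7.51% as lower and 4.92% as higher. In HFepa vs. reference it fell by 0.63 (SE 0.15, 35.5% lower, edgeR adjusted p = 0.00872), where 15.8% of the miRNAs tested were called, 10.6% as lower and 5.18% as higher. These comparisons share the 8 reference libraries, so that they are not independent of each other. The median log2 fold change of all miRNAs tested was -0.00 in the former and -0.06 in the latter. In HFepa vs. HFoleic the difference was -0.15 (SE 0.15, 95% interval -0.46 to 0.16, edgeR adjusted p = 0.968) and was not called. No miRNA was called in that comparison (0% of 386), although 22 had an unadjusted p under 0.05.

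The level of miR-128-3p also followed the library number, within a group as well as between groups. Within HFoleic, the libraries numbered 9 to 11 stood at 40.4, 43.6 and 40.4 CPM, in the range of the reference mice apart from the small gap given above. The libraries numbered 12 to 15 and 23 stood at 26.1, 31.96, 20.9, 29.1 and 24.9 CPM, in the range of the HFepa mice. These sets did not overlap, which held for 18.7% of all miRNAs tested, 9.07% with the later numbers lower. Over the 3 groups, libraries 1 to 11 lay between 40.4 and 52.3 CPM and libraries 12 to 23 between 20.8 and 42.0 CPM. Library 17 alone reached into the upper range, and 2.85% of the miRNAs tested showed no overlap at all between these number ranges.

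**Figure D1:**
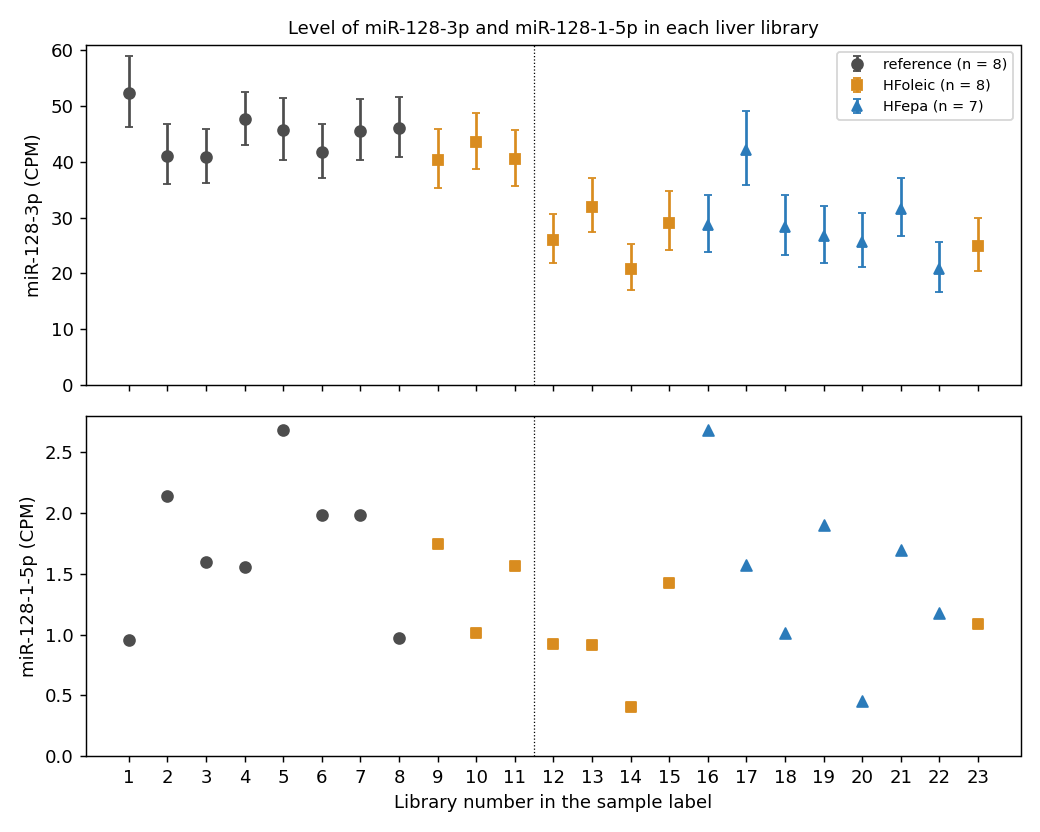
Level in CPM of miR-128-3p (upper panel) and miR-128-1-5p (lower panel) in each of the 23 liver libraries, ordered by the number in the sample label, with 1 point per mouse and group by color and shape. Bars in the upper panel are 95% Poisson intervals (counting error only), and the dotted line separates numbers 1 to 11 from 12 to 23. HFoleic libraries 9 to 11 lie at 40.4 to 43.6 CPM beside the reference mice, and the other HFoleic libraries lie at 20.9 to 31.96 CPM beside the HFepa mice.

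Within the number ranges the differences of miR-128-3p were not called, and that of HFepa vs. HFoleic turned. Among libraries 1 to 11, HFoleic vs. reference gave a log2 fold change of -0.11 (edgeR adjusted p = 0.703), with 3 HFoleic mice. Among libraries 12 to 23, HFepa vs. HFoleic gave 0.13 (edgeR adjusted p = 0.879). With a term for the number range in the fit of all libraries, the differences were -0.12 in HFoleic vs. reference (edgeR adjusted p = 0.818), 0.0081 in HFepa vs. reference (edgeR adjusted p = 1) and 0.13 in HFepa vs. HFoleic (edgeR adjusted p = 0.951). The 95% interval of the last was -0.15 to 0.40 with this term and -0.19 to 0.46 among libraries 12 to 23, so that differences between the lineages in either direction remain within the error. That of HFoleic vs. reference was -0.43 to 0.19 with the term and -0.33 to 0.11 among libraries 1 to 11. A fall and no difference thus both remain within the error there. HFepa vs. reference has no mice of both groups in the same range, so that group and library number cannot be told apart there. Depth moved along with the number, with a median of 6187441 counts in libraries 1 to 11 and 4513069 in libraries 12 to 23. When all libraries were thinned to 3725432 counts, miR-128-3p was still called in HFoleic vs. reference and HFepa vs. reference. Thinning evens out the number of counts only. It cannot undo other differences between libraries 1 to 11 and 12 to 23.

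**Figure D2:**
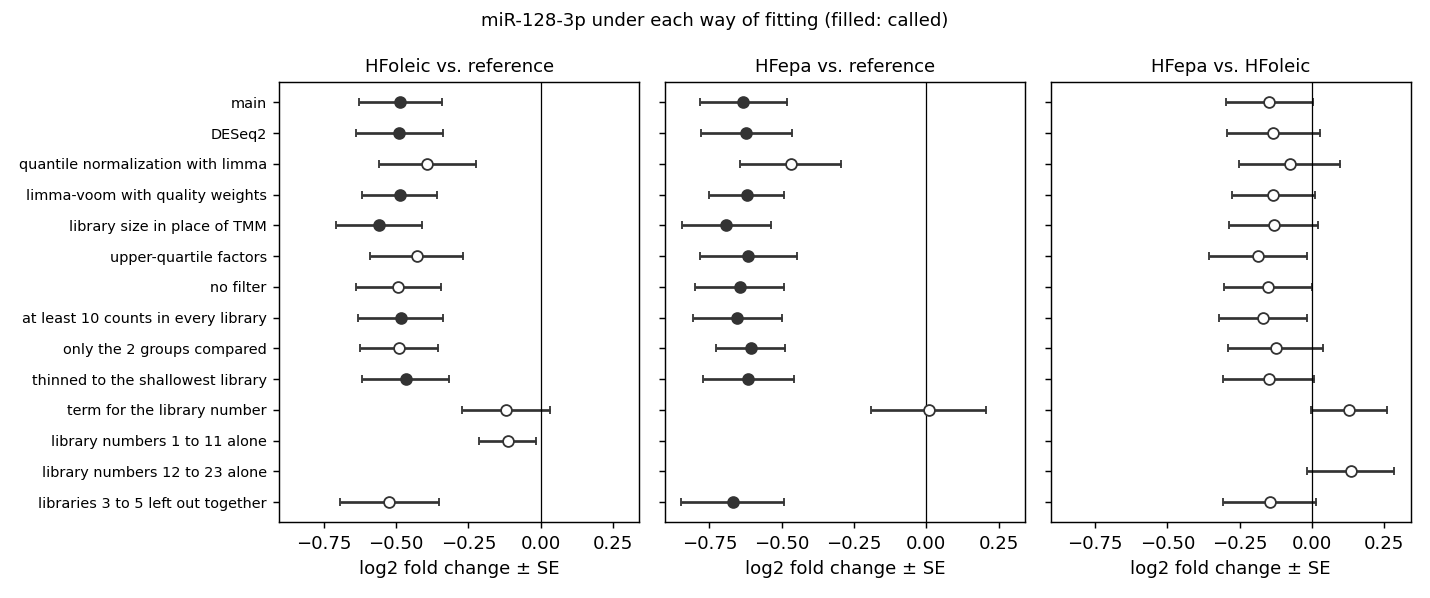
The log2 fold change of miR-128-3p with its standard error in the 3 comparisons (panels), under the main fit and each alternative (rows); filled points passed the call (adjusted p under 0.05 and absolute log2 fold change over 0.25). The main values are -0.49, -0.63 and -0.15, and the rows with a library number term or a single number range lie between -0.12 and 0.13, all open.

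The spread of miR-128-3p between mice was small in reference and larger in the high-fat groups. Counting alone would give an SD of 2.68 CPM in reference, where 3.87 was found. In HFoleic it would give 2.42 CPM against the 8.39 found, and in HFepa 2.63 CPM against 6.60. The 8.39 CPM takes in the step between the HFoleic library numbers. The SD was 1.81 CPM in HFoleic libraries 9 to 11 (n = 3) and 4.21 CPM in libraries 12 to 15 and 23 (n = 5). The counts behind these levels were 230 to 397 per library in reference, 103 to 301 in HFoleic and 88 to 160 in HFepa. Counting error was thus the smaller part of the spread in both high-fat groups; the difference in spread between groups was not tested.

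The call in HFoleic vs. reference depended on single libraries. It was lost in 8 of 23 fits that left out 1 library, namely without reference library 1, 4 or 5 or HFoleic library 12, 13, 14, 15 or 23, with values between -0.54 and -0.42 and a highest adjusted p of 0.0682 (edgeR). Without libraries 3 to 5 together the value was -0.52 and the adjusted p 0.111 (edgeR). In HFepa vs. reference the call held in all 23 fits, between -0.75 and -0.55, and without libraries 3 to 5 it was -0.67 (edgeR adjusted p = 0.0320).

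miR-128-1-5p, the product that marks Mir128-1 alone, was not called in any comparison. In reference it ranged from 0.954 through a median of 1.79 to 2.69 CPM (1.73 ± 0.590, n = 8), in HFoleic from 0.405 through 1.05 to 1.75 CPM (1.13 ± 0.428, n = 8) and in HFepa from 0.453 through 1.58 to 2.68 CPM (1.5004 ± 0.712, n = 7). The 3 groups overlapped over most of their ranges, as the plot of levels by library number shows. These levels rest on 2 to 16 counts per library. The difference on the log2 scale came to -0.60 in HFoleic vs. reference (SE 0.29, 95% interval -1.19 to -0.00, edgeR adjusted p = 0.174), -0.20 in HFepa vs. reference (SE 0.30, -0.82 to 0.41, adjusted p = 0.726) and 0.39 in HFepa vs. HFoleic (SE 0.31, -0.26 to 1.05, adjusted p = 0.946). The falls of miR-128-3p, by 0.49 in HFoleic and 0.63 in HFepa vs. reference, lie inside these intervals, so that a different behavior of miR-128-1-5p was not detectable at this depth. For miR-128-2-5p no comparison can be read, since its counts came from 1 library.

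No change in the balance between the arms of miR-128 was detected beyond the spread between mice. Over all libraries the 5p arms took 3.89% of the 4805 counts of the family (95% exact interval 3.36 to 4.48). Per library the share was 3.75 ± 1.34% in reference (1.79 to 5.56), 3.63 ± 1.21% in HFoleic (1.90 to 5.37) and 4.93 ± 2.26% in HFepa (1.74 to 8.57). The ranges overlapped in all 3 comparisons. Differences in percentage points were -0.12 in HFoleic vs. reference (exact 2-sided permutation test, p = 0.848), 1.18 in HFepa vs. reference (exact permutation p = 0.237) and 1.30 in HFepa vs. HFoleic (exact permutation p = 0.182). Adjusted over these 3 tests the p-values became 0.848, 0.355 and 0.355 (exact permutation tests, Benjamini-Hochberg).

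**Figure D3:**
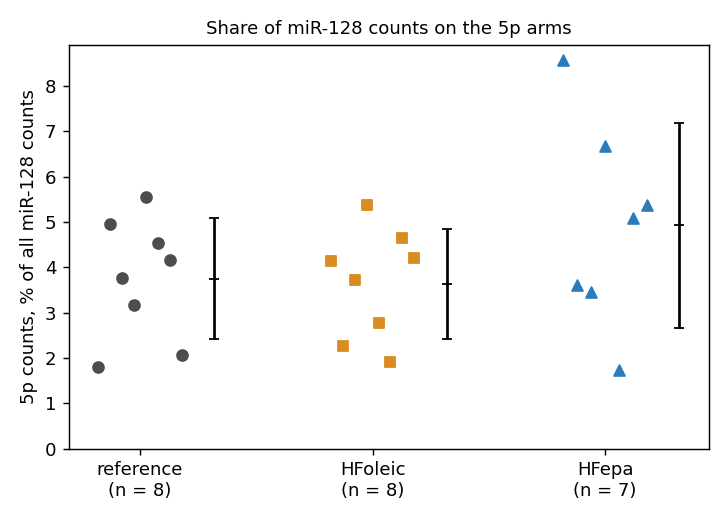
Share of all miR-128 counts that fell on the 5p arms, in percent, with 1 point per mouse in the reference, HFoleic and HFepa groups; the black bar beside each group is the mean ± SD. The group means are 3.75, 3.63 and 4.93% and the points of the 3 groups overlap.

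The miRNAs whose pattern over the libraries was most like that of miR-128-3p were sought among the 258 miRNAs that averaged 10 CPM or more. Pearson's r of log2 CPM over the 23 libraries was highest for let-7f-5p (0.89), miR-1843b-3p (0.88), miR-423-3p (0.77), miR-676-3p (0.76) and miR-150-5p (0.72), a miRNA of lymphocytes. It was lowest for miR-501-3p (-0.80), miR-5099 (-0.79) and miR-186-5p (-0.77). With the group means subtracted, let-7f-5p (0.82) and miR-1843b-3p (0.79) still came first. All points share the library numbers and depth of miR-128-3p, and these values are a description; r with the log2 total counts was 0.62, and 0.35 with the group means subtracted. miR-128-1-5p reached 0.43.

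**Figure D4:**
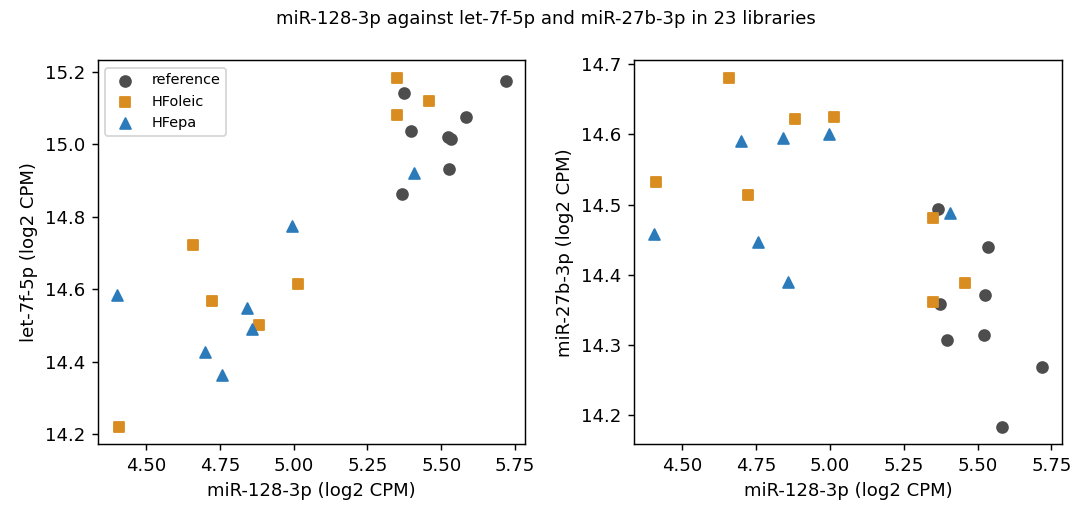
Level of let-7f-5p (left) and miR-27b-3p (right) against that of miR-128-3p, all as log2 CPM (prior count 2), with 1 point per library and group by color and shape. Pearson's r is 0.89 for let-7f-5p and -0.67 for miR-27b-3p over the 23 libraries, and 0.82 and -0.39 with the group means subtracted.

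let-7f-5p showed the same step between the HFoleic libraries. It stood at 34660 to 37228 CPM in libraries 9 to 11 and at 19081 to 27042 CPM in libraries 12 to 15 and 23. Its difference on the log2 scale came to -0.25 in HFoleic vs. reference (edgeR adjusted p = 0.155) and to -0.44 in HFepa vs. reference (adjusted p = 0.0195). miR-1843b-3p went from 51.7 to 56.7 CPM in libraries 9 to 11 down to 13.8 to 25.02 CPM in the others. miR-501-3p went the opposite way, from 9.62 to 14.8 CPM up to 57.4 to 146 CPM.

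miR-27b-3p, which shares the bases of the miR-128-3p seed at an offset of 1, had slightly higher levels in both high-fat groups and also followed the library number. It ranged from 18606 through a median of 20687 to 23064 CPM in reference, from 21053 through 23551 to 26259 CPM in HFoleic and from 21468 through 22971 to 24850 CPM in HFepa. The groups overlapped. Its log2 fold changes were 0.18 in HFoleic vs. reference (SE 0.05, edgeR adjusted p = 0.0288) and 0.17 in HFepa vs. reference (SE 0.06, adjusted p = 0.0414), under the size of 0.25 that a call needs. Within HFoleic it stood at 21053 to 22875 CPM in libraries 9 to 11 and at 23401 to 26259 CPM in libraries 12 to 15 and 23. These sets did not overlap, which held for 18.7% of all miRNAs tested. With the library number term the values were 0.07 (edgeR adjusted p = 0.767) and -0.02 (adjusted p = 0.992). miR-27a-3p gave -0.16 and -0.02 and was not called. miR-27b-3p thus remained far above miR-128-3p in every group.

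Among other miRNAs described as regulators of lipid and cholesterol metabolism, 18 of a list of 21 were tested, and few were called. In HFoleic vs. reference, 1 was called as higher and none as lower, which is 5.56% of the list where 12.4% of all miRNAs tested were called. This was miR-33-5p, from 7.42 ± 2.04 CPM in reference (3.53 to 10.6) to 11.1 ± 1.61 CPM in HFoleic (9.69 to 14.6), with a log2 fold change of 0.58 (SE 0.17, edgeR adjusted p = 0.0278). Its call was lost in 3 of 23 fits that left out 1 library, namely library 5, 14 or 23. In HFepa vs. reference miR-33-5p gave 0.45 (adjusted p = 0.0758) and was not called.

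In HFepa vs. reference, 1 of the 18 was called as lower, miR-10b-5p, with a log2 fold change of -2.36 (SE 0.83, edgeR adjusted p = 0.04998), where 15.8% of all were called. It rested on reference library 5, which held 20240 CPM while the next library held 1980; without it the value was -0.36 (adjusted p = 0.704). The call was lost in 17 of 23 fits that left out 1 library (edgeR), and kept only without library 1, 2, 4, 6, 7 or 8. The median of the list was 0.01 in HFoleic vs. reference and -0.01 in HFepa vs. reference, beside -0.00 and -0.06 for all miRNAs tested. miR-122-5p gave -0.00 in both. miR-148a-3p, an abundant hepatocyte miRNA, gave -0.13 and -0.26, and miR-130b-3p, a regulator of PPARγ, -0.57 and -0.41, and none of these was called.

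Of 14 miRNAs described in insulin signaling, all tested, 2 were called as higher and 1 as lower in HFoleic vs. reference (21.4% of the list, beside 12.4% of all). Those higher were miR-33-5p and miR-107-3p, which acts on caveolin and insulin sensitivity, at 0.39 (SE 0.12, edgeR adjusted p = 0.0357). miR-107-3p ranged from 550 to 1215 CPM in reference and from 1192 to 1557 CPM in HFoleic. The lower one was miR-181b-5p at -0.52 (SE 0.15, adjusted p = 0.0278), from 146 to 369 CPM in reference and from 117 to 166 CPM in HFoleic. The call of miR-107-3p was lost in 6 of 23 fits that left out 1 library (4, 5, 13, 14, 15 or 18) and that of miR-181b-5p in 5 (5, 10, 13, 14 or 15). In HFepa vs. reference none of the 14 was called, and the median was 0.09 in HFoleic vs. reference and in HFepa vs. reference. With the library number term, or without libraries 3 to 5, no miRNA of either list was called in any comparison (edgeR). Within HFoleic, miR-33-5p had means of 10.8 CPM in libraries 9 to 11 and 11.3 CPM in libraries 12 to 15 and 23. For miR-107-3p these means were 1230 and 1314 CPM, and for miR-181b-5p 143 and 130 CPM. The reference means were 7.42, 979 and 193 CPM. Why the calls were lost was not tested. In HFepa vs. HFoleic no miRNA of either list was called, as for all 386.

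**Figure D5:**
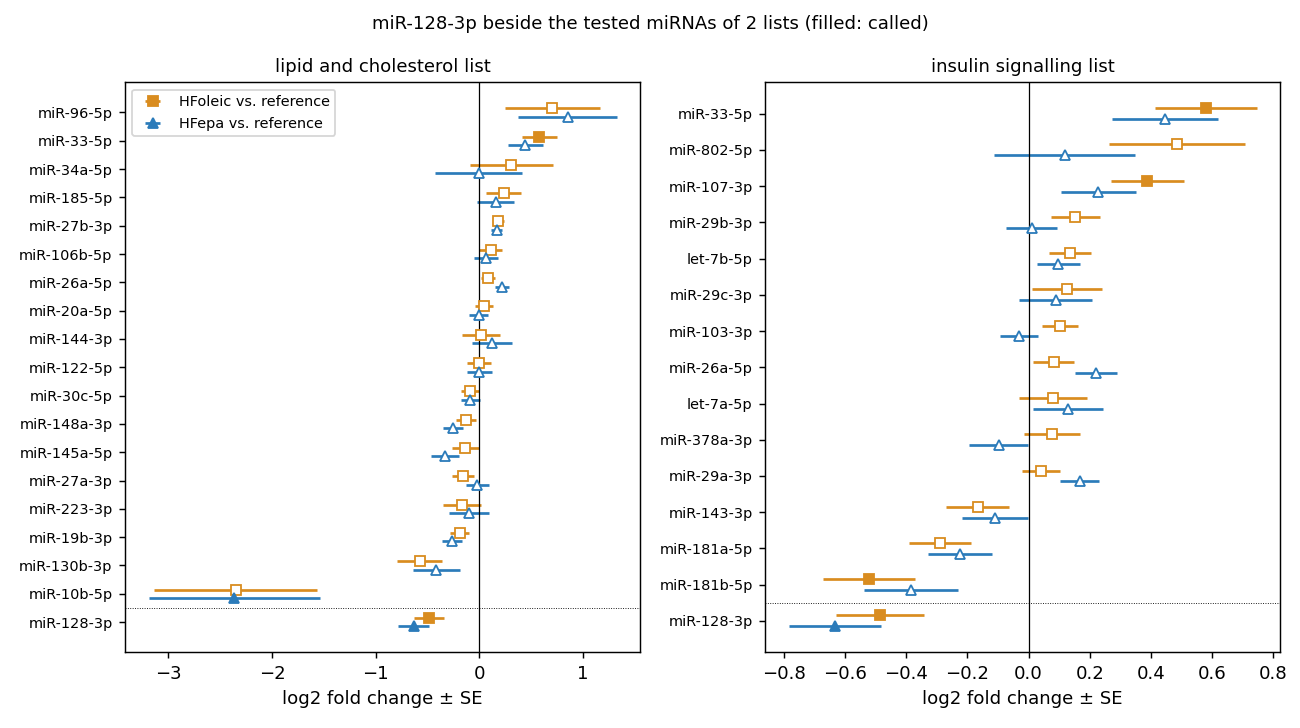
Log2 fold change with its standard error of the tested miRNAs of the lipid and cholesterol list (left) and the insulin signaling list (right) in HFoleic vs. reference and HFepa vs. reference, with miR-128-3p below the dotted line; filled points passed the call. miR-128-3p is the only one shown that is filled in both comparisons, at -0.49 and -0.63, and these comparisons share the 8 reference libraries. With the library number term its values were -0.12 and 0.0081, and neither was called. The value of -2.36 for miR-10b-5p rests on 1 reference library.

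miRNAs that mark other cells were set beside these levels, since miR-128 is abundant in neurons and since fewer cells of a type and less of the miRNA per cell cannot be told apart in whole liver. The 8 miRNAs of the nervous tissue list were all listed and 3 were tested. Their sum ranged from 12.2 to 49.5 CPM in reference, from 11.7 to 17.8 CPM in HFoleic and from 12.1 to 17.7 CPM in HFepa, with medians of 15.4, 14.7 and 15.4 CPM. The 49.5 CPM came from library 5 alone, and the next library was 3 at 25.4 CPM. The defining miR-124-3p had 4 counts in all 23 libraries together. The sum of the leukocyte list had medians of 2210, 1914 and 2107 CPM, with 1 of its 6 members, miR-150-5p, called as lower in both high-fat groups at -0.94 and -1.40 (edgeR adjusted p = 0.0174 and 0.00122), beside 12.4% and 15.8% of all miRNAs tested. Its level was 203 to 512 CPM where the number was 1 to 11, and 83.0 to 160 CPM where it was 12 to 23. These ranges did not overlap, which held for 2.85% of all miRNAs tested. The endothelial sum moved opposite to miR-128-3p, from 13884 to 20326 CPM in reference, from 18211 to 26002 CPM in HFoleic and from 19642 to 23667 CPM in HFepa, with r = -0.65 over the 23 libraries. That list holds only the 2 arms of miR-126a, with means of 17395 CPM for miR-126a-5p and 2500 CPM for miR-126a-3p. In HFoleic vs. reference neither arm was called, at log2 fold changes of 0.18 for miR-126a-5p and 0.03 for miR-126a-3p. In HFepa vs. reference only miR-126a-5p was called, beside 15.8% of all miRNAs tested. The endothelial sum too differed within HFoleic, at 18211 to 18362 CPM in libraries 9 to 11 and 19729 to 26002 CPM in libraries 12 to 15 and 23. Its part in the level of miR-128-3p was not tested.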

How the data were processed

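The authors prepared small RNA libraries from liver total RNA, removed adapter sequence (FASTX-Toolkit), mapped reads by Bowtie within ncPRO-seq and deposited raw counts per mature miRNA. The sources name the genome as GRCm38.p6, mm9 and mm10; how reads that match several places were counted is not given in the sources used here. The authors also deposited a signal (the count divided by a size factor), group means, log2 fold changes and p-values, none of which was used.

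Of 1218 miRNAs, 386 passed filterByExpr by group. TMM factors and 1 edgeR quasi-likelihood fit of the 3 groups gave Benjamini-Hochberg adjusted p-values over all 386; the SE is the log2 fold change divided by the square root of F. Log2 CPM used a prior count of 2. Exact 2-sided permutation tests were used for the 5p share; for miR-128-2-5p, with counts in 1 library, their p is fixed at 1 and is not used. Each mouse was 1 library. The p-values set differences between groups against the spread between the libraries of a group. In HFoleic that spread takes in the step between library numbers. No pair of libraries of a group agreed within sampling noise. R 4.3.3, edgeR 4.0.16, DESeq2 1.42.0, limma 3.58.1, Python 3.11.15 and scipy 1.17.1 were used, and the fits were tested on simulated data.

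The members, lists, named miRNAs and alternatives were chosen with earlier results of these data known. Named miRNAs were the members, the miR-27 products, the 5 most and 3 least alike to miR-128-3p, and the called members of the lists. Alternatives were DESeq2, limma with quantile normalization, limma-voom with quality weights, upper-quartile factors, library size, a filter of 10 counts in each library, no filter, fits of the 2 compared groups alone, thinning, the library number and each library left out. The fits without libraries 3 to 5, the library number fits for miR-128-1-5p and miR-27b-3p and all alternatives for the lists were added after seeing the data, as were the genes searched for seed matches. A gene of the seed match search is not reported here.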

Additional observations from a re-analysis of the deposited data

Results flagged for a closer look

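The 3 counts of miR-128-2-5p, the product that marks the gene Mir128-2, all came from HFoleic library 12, at 0.554 CPM, while the other 7 HFoleic libraries had none. That library was marked because its gap to the others is the whole range of its group, which holds for any count in a group otherwise at 0, so that no rate of chance marks can be given.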

How the results depend on the processing

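The fall of miR-128-3p in HFoleic vs. reference kept its direction in all alternatives, but the call was lost with quantile normalization and limma (-0.39), upper-quartile factors (-0.43), no filter (-0.49), only the 2 groups compared (-0.49), the library number term (-0.12), libraries 1 to 11 alone (-0.11) and without libraries 3 to 5 (-0.52). In HFepa vs. reference it was lost with quantile normalization and limma (-0.47) and turned with the library number term (0.0081). HFepa vs. HFoleic turned with that term and in libraries 12 to 23 alone (0.13 in both). Leaving out 1 library gave -0.54 to -0.42, -0.75 to -0.55 and -0.26 to -0.06. For miR-128-1-5p an exact permutation test of log2 CPM in HFoleic vs. reference passed unadjusted (-0.49, p = 0.0407), HFepa vs. reference turned with the library number term (0.39), and leaving out 1 library gave -0.71 to -0.48, -0.41 to -0.04 and 0.19 to 0.56 in the 18 of 23 fits in which it passed the filter. The 5p share in HFoleic vs. reference turned on a log2 ratio scale (0.023). Leaving out 1 library gave -0.40 to 0.14, 0.57 to 1.71 and 0.69 to 1.83 percentage points. The lowest unadjusted exact permutation p-values of these were 0.517, 0.0723 and 0.048. In HFepa vs. HFoleic 1 of 15 such tests thus passed unadjusted. For miR-128-2-5p leaving out 1 library gave 0.0693 to 0.0792 CPM and -0.0792 to -0.0693 CPM. miR-27b-3p in HFepa vs. reference turned with the library number term (-0.018). Of the list counts, those of HFoleic vs. reference went to 0 with the library number term and without libraries 3 to 5, as did that of the lipid list in HFepa vs. reference, also with DESeq2 (0). Over all tested miRNAs, leaving out libraries 3 to 5 left 2 and 32 calls in HFoleic vs. reference and HFepa vs. reference, in place of 48 and 61. The cause was not tested. No paired analysis was possible because the labels give no number that joins mice of different groups. The depth limits the 5p products, with 2 to 16 counts of miR-128-1-5p per library.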
